A study of Homo sapiens with 14 samples.

Results

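The cytochrome P450 4F genes encode monooxygenases that hydroxylate fatty acids and related lipids at the end of the carbon chain. The 6 genes described here, CYP4F2, CYP4F3, CYP4F8, CYP4F11, CYP4F12 and CYP4F22, were read by 6 probe sets annotated to exactly one of these symbols, of 54613 probe sets and 19775 genes on the array. CYP4F2 was picked on its measured rise with TSA in these same arrays, and the other members were chosen as its relatives in one cluster on chromosome 19. The differences between TSA and the other drug groups are therefore given as a description. Where members past the threshold are counted in them, the count stands beside the share of all probe sets and supports nothing, and the comparisons within the transfection experiment are the ones that the choice did not use.

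Cells of LNCaP, a human prostate cancer line that responds to androgen, were profiled on Affymetrix arrays in 7 groups of 2 arrays. In the drug experiment, untransfected cells were kept for 24 h in 0.1% DMSO, the solvent, in TSA at 5 uM or in Roscovitine at 10 uM. TSA, trichostatin A, blocks histone deacetylases, and Roscovitine blocks cyclin-dependent kinases. In the transfection experiment, cells without drug were left for 60 h after transfection with si-Control, a control siRNA, with si-EZH2, which targets EZH2, or with si-EZH2 together with a plasmid for RNAi-resistant EZH2. That plasmid carried either the unmutated gene (si-EZH2&EZH2sr, called the EZH2 add-back below) or the T350A mutant (si-EZH2&T350Asr, the T350A add-back). EZH2 is the histone methyltransferase of the Polycomb repressive complex PRC2.

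Enzymes of this family sit in the endoplasmic reticulum and take electrons from the reductase POR. They put a hydroxyl group on the far end of a lipid chain, which inactivates leukotrienes, makes signalling lipids from arachidonic acid, starts the removal of the side chains of vitamins E and K, or prepares very long fatty acids for the skin barrier. The genes are known mainly from liver, kidney, gut, white blood cells, seminal vesicle and skin, and are close copies of one another in sequence.

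The median signal of the arrays lay between 107 and 117, and 31.7% to 34.5% of the probe sets of an array were under a signal of 50, a level called low here. EZH2 itself had a mean signal of 1191 ± 42.8 (SD, n = 2) with si-Control and 393 ± 0.516 with si-EZH2, a log2 difference of -1.56 ± 0.08 (SE; limma, adjusted p = 0.000273), and of 831 ± 11.7 and 816 ± 13.8 in the EZH2 and T350A add-backs. EZH2 was also lower with TSA (-0.37 ± 0.08, limma, adjusted p = 0.0052) and with Roscovitine (-0.45 ± 0.08, limma, adjusted p = 0.035) than with DMSO. With the drug arrays fitted alone, 0 of the 54613 probe sets passed in Roscovitine minus DMSO, so EZH2 did not pass there. The arrays of Roscovitine and of the T350A add-back differed between replicates in like ways: the replicate differences of these 2 groups correlated across 19775 genes with r = 0.508, which does not show which replicate stood apart, whereas the other 20 pairs of groups gave -0.160 to 0.140. Genes are not independent replicates. Of 7 listed markers of LNCaP and prostate epithelium 5 were measured (KLK3, KLK2, TMPRSS2, FOLH1 and HOXB13). All 5 were lower with TSA, as 20.5% of all genes were. Their summed signal was 24108 to 24940 with DMSO and 3157 to 3245 with TSA.

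On the GRCh38.p14 assembly the 6 genes spanned 426 kb of chromosome 19. From the lower coordinate on they are CYP4F22 (15508525 to 15552317), CYP4F8 (15615218 to 15630639), CYP4F3 (15640897 to 15662825), CYP4F12 (15673087 to 15697174), CYP4F2 (15878023 to 15898074) and CYP4F11 (15912377 to 15934867). CYP4F8, CYP4F3 and CYP4F12 are separated by gaps of 10.3 kb each, and CYP4F2 lies 181 kb beyond CYP4F12 and 14.3 kb from CYP4F11. The positions are those of the RefSeq annotation. Each gene had 1 probe set: 244692_at for CYP4F22, 210576_at for CYP4F8, 206515_at for CYP4F3, 206539_s_at for CYP4F12, 210452_x_at for CYP4F2 and 206153_at for CYP4F11. In Affymetrix naming the endings _s_at and _x_at mark probe sets whose probes may also match other transcripts, so the signals of CYP4F12 and CYP4F2 may hold signal of other close copies. A further probe set, 206514_s_at, was annotated to both CYP4F2 and CYP4F3 and is described apart from the members.

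The promoters of 4 members are printed to set the sequences of genes that differed with TSA (CYP4F2 and CYP4F8) beside those of close relatives that did not pass (CYP4F11 and CYP4F3). Each is the strand of the gene, 5′ to 3′, from 250 bases before a RefSeq transcription start to 50 after it, on GRCh38.p14. Capitals mark matches, on either strand, to the CCAAT box (CCAAT), the GC box (GGGCGG) or the AP-1 site (TGANTCA); no matches overlapped.
CYP4F2, chr19:15898025-15898324, minus strand: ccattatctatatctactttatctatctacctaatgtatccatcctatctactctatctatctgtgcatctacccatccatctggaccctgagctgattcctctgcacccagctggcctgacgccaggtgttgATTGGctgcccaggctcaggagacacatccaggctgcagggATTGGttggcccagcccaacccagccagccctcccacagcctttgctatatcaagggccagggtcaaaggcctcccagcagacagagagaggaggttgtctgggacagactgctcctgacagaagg
CYP4F8, chr19:15614968-15615267, plus strand: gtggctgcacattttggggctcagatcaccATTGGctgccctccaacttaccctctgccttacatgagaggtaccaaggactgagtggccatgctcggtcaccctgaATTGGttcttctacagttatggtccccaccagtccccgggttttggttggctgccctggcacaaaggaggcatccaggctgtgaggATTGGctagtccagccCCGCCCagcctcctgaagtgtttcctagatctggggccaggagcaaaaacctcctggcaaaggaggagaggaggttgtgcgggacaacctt
CYP4F11, chr19:15934818-15935117, minus strand: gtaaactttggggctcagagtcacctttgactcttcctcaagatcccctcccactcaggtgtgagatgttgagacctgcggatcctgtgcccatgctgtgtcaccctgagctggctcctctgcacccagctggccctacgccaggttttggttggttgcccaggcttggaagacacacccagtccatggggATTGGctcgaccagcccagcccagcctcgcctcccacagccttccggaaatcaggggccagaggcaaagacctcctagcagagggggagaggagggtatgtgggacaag
CYP4F3, chr19:15641062-15641361, plus strand: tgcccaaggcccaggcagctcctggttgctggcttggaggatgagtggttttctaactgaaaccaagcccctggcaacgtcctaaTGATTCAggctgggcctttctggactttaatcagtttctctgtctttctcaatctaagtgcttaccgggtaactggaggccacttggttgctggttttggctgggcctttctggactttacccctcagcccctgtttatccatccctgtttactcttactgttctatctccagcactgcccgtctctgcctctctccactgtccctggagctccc

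In the CYP4F2 promoter the CCAAT box matched 117 and 76 bases upstream of the start, and in the CYP4F8 promoter 220, 143 and 57 bases upstream. The CYP4F11 promoter printed above held 1 such match, 59 bases upstream, and the CYP4F3 promoter held none. The CYP4F3 window lies inside the annotated gene, which begins at 15640897. It thus belongs to a start further downstream, and a window at the outermost start of CYP4F3 was not compared. CCAAT occurred in 34.6% of all 35097 RefSeq promoters of this length, so a match was common. The GC box matched once in CYP4F8 (41 bases upstream) and 4 times in CYP4F22, against 44.9% of all promoters with a match, and the AP-1 site matched once in CYP4F3 (165 bases upstream), against 7.71%. A CYP4F11 promoter of another start (15934480 to 15934779) held 1 CCAAT and 1 AP-1 match. No letters of the TATA box (TATAAA, 11.5% of all promoters) or of a nuclear receptor half-site (AGGTCA, 13.8%) were in any of the 6 windows of the 5 members with an entry. CYP4F12 had no entry.

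CpG dinucleotides, the sites of DNA methylation, were few in most of these windows. The CYP4F2 promoter held 1, and 11.0% of all promoters held 1 or none. The other CYP4F11 promoter held 0, as 3.96% of all promoters did. CYP4F3 held 3, CYP4F8 held 4 and the CYP4F11 promoter printed above held 5, where the median promoter held 14. CYP4F22 stood apart with 21. In local alignments of the 15 pairs of windows, the CYP4F2 promoter was most like the printed CYP4F11 promoter, with 174 identical bases in 224 alignment columns (77.7%). CYP4F8 shared 210 of 300 columns (70.0%) with that CYP4F11 promoter and 148 of 214 (69.2%) with CYP4F2, and CYP4F3 shared 208 of 285 (73.0%) with the other CYP4F11 promoter. Among the 5 members with an entry, the promoter nearest in sequence to that of CYP4F2 was this one of CYP4F11. The mean CYP4F11 signal was 59.3 with TSA and 59.5 with DMSO. CYP4F12 could not be compared, and a link between promoter sequence and the differences with TSA was not tested.

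CYP4F2, which hydroxylates arachidonic acid and the side chains of vitamins K and E in liver and kidney, was at low signal on every array except the TSA arrays. Its signal with DMSO was 21.3 and 8.60 (mean 15.0 ± 8.99, SD, n = 2), and with TSA it was 6211 and 5810 (6011 ± 284). With Roscovitine it was 18.9 and 8.49, with si-Control 10.0 and 19.4, with si-EZH2 11.1 and 8.28, with the EZH2 add-back 15.1 and 15.6, and with the T350A add-back 13.5 and 16.6. Both TSA arrays stood far above the 12 others, which ran from 8.28 to 21.3 with a median of 14.3. Among those the si-EZH2 arrays lay below both add-backs, the group means ran from 9.68 ± 1.98 to 15.3 ± 0.332, and no comparison among them passed the test given below. In bulk RNA, more expressing cells and more RNA per cell cannot be told apart. The mean with TSA was 120 times a signal of 50, the level below which all other arrays lay. On the scale used for the comparisons, log2 of the signal plus 16, which understates the change of low signals, TSA exceeded DMSO by 7.64 ± 0.23 (SE). That was the second-largest difference among the 54613 probe sets on this scale, after 8.71 for probe set 214872_at, annotated to RIF1. The wording of the choice, a rise larger than any other, thus held on this scale for CYP4F2 except against that probe set. Ranks with other values added were not taken.

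CYP4F8, a hydroxylase of prostaglandin endoperoxides found in seminal vesicle, lay near the floor of the scale on all arrays without TSA. Its signal was 2.58 and 1.82 with DMSO (2.20 ± 0.537, SD, n = 2) and 227 and 187 with TSA (207 ± 28.1). It was 2.04 and 2.22 with Roscovitine, 2.26 and 4.16 with si-Control, 3.67 and 2.83 with si-EZH2, 3.92 and 5.32 with the EZH2 add-back, and 2.67 and 4.72 with the T350A add-back. The TSA arrays did not overlap any other group, and the 12 others, between 1.82 and 5.32, were too close to the floor to be ordered. TSA exceeded DMSO by 3.61 ± 0.10 (SE) on the log2 scale with 16 added. With DMSO near the floor this size depends on what is added, from 2.03 with 64 to 6.03 with 1, and no ratio of the signals is given. The mean with TSA was 4.14 times a signal of 50.

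CYP4F12, which hydroxylates arachidonic acid and antihistamine drugs in gut and liver, was the other member with higher signal in TSA. It had signals of 20.1 and 17.2 with DMSO (18.7 ± 2.08, SD, n = 2) and of 241 and 206 with TSA (223 ± 24.9). It had signals of 16 and 18.7 with Roscovitine, 33.5 and 6.30 with si-Control, 15.3 and 33.5 with si-EZH2, 36.3 and 29.7 with the EZH2 add-back, and 24.3 and 27.5 with the T350A add-back. The TSA arrays again stood clear of the 12 others, which ran from 6.30 to 36.3. The 2 arrays of si-Control and the 2 of si-EZH2 lay far apart from each other, which made CYP4F12 the member with the widest intervals. TSA exceeded DMSO by 2.78 ± 0.33 (SE) on the log2 scale with 16 added, from 1.79 with 64 to 3.51 with 1 added, and the mean with TSA was 4.46 times a signal of 50.

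CYP4F3, the leukotriene B hydroxylase of neutrophils and, as a splice form, of liver, lies between CYP4F8 and CYP4F12 and did not share their pattern. Its signal was 46.9 and 37.1 with DMSO (42.0 ± 6.92, SD, n = 2) and 43.3 and 35.7 with TSA (39.5 ± 5.37). The remaining groups gave 32.9 and 44.0 (Roscovitine), 31.7 and 43.6 (si-Control), 27.9 and 51.5 (si-EZH2), 42.9 and 29.3 (EZH2 add-back), and 44.2 and 46.1 (T350A add-back). The TSA arrays overlapped DMSO and every other group except the T350A add-back, and both the lowest and the highest of the 14 arrays belonged to si-EZH2. TSA minus DMSO was -0.06 ± 0.22 (SE) on the log2 scale with 16 added, with a 95% interval from -0.56 to 0.44.

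CYP4F11, which acts on long-chain and hydroxylated fatty acids and on vitamin K, is the nearest neighbour of CYP4F2. Its signal was 58.1 and 61.0 with DMSO (59.5 ± 2.02, SD, n = 2) and 65.8 and 52.7 with TSA (59.3 ± 9.26). It was 57.3 and 66.8 with Roscovitine, 70.8 and 61.8 with si-Control, 79.8 and 63.4 with si-EZH2, 97.2 and 86.0 with the EZH2 add-back, and 80.7 and 91.7 with the T350A add-back. The TSA arrays overlapped the DMSO, Roscovitine, si-Control and si-EZH2 arrays. The 4 add-back arrays were the highest, the lowest of them (80.7) just above the highest other array (79.8). TSA minus DMSO was -0.01 ± 0.13 (SE), with a 95% interval from -0.31 to 0.29.

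CYP4F22, which hydroxylates very long fatty acids for the acylceramides of the skin and is mutated in a form of ichthyosis, had signals above 50 on every array. They were 120 and 130 with DMSO (125 ± 6.52, SD, n = 2), 131 and 149 with TSA (140 ± 12.5) and 140 and 133 with Roscovitine. In the transfection experiment they were 107 and 98.6 with si-Control, 125 and 125 with si-EZH2, 116 and 111 with the EZH2 add-back, and 135 and 94.8 with the T350A add-back. Both TSA arrays were above both DMSO arrays but overlapped Roscovitine and the T350A add-back, and the lowest array of all was replicate 2 of the T350A add-back. TSA minus DMSO was 0.14 ± 0.13 (SE), with a 95% interval from -0.16 to 0.44.

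**Figure D1:**
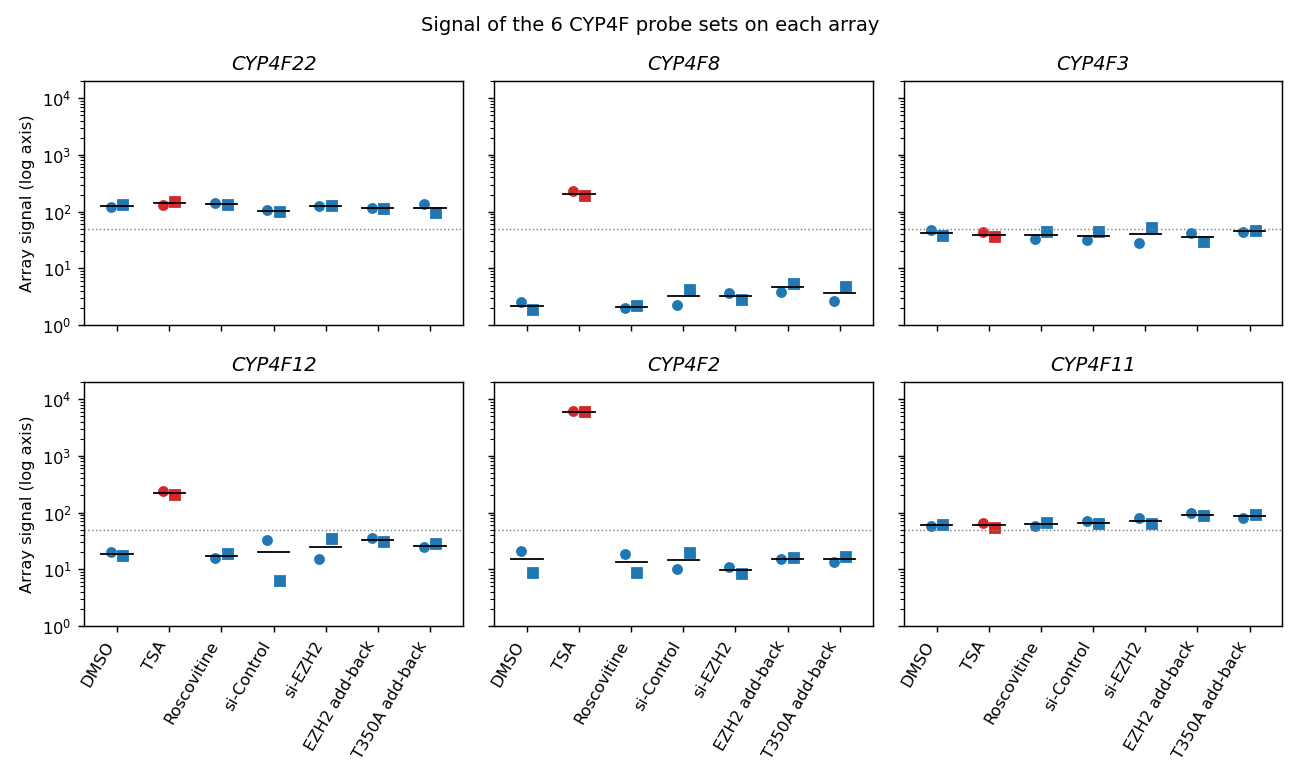
Array signal (log axis, array units) of the 6 CYP4F probe sets by group; circles are replicate 1, squares replicate 2, bars the mean of 2 arrays, TSA is red, and the dotted line is a signal of 50. CYP4F2 (6011), CYP4F8 (207) and CYP4F12 (223) had mean signals with TSA clear of all other arrays, while CYP4F3, CYP4F11 and CYP4F22 with TSA lay among or next to the other groups. The share of all probe sets with TSA arrays clear of the others was not computed, and 31.9% of all passed in TSA minus DMSO.

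In TSA minus DMSO 3 of the 6 members passed an adjusted p of 0.05, all higher, where 31.9% of all probe sets passed in either direction. Because this contrast chose CYP4F2, nothing is read from that count. Nor is anything read from the TSA arrays of these 3 standing clear of the 12 others. The share of all probe sets that did so was not computed. TSA minus Roscovitine shares the TSA arrays and gave the same split, with differences of 7.69 for CYP4F2, 3.61 for CYP4F8 and 2.84 for CYP4F12, against 0.03 for CYP4F22, 0.03 for CYP4F3 and -0.05 for CYP4F11, with 3 of 6 past the threshold beside 33% of all probe sets. By the probe sets annotated to a single member, the cluster neighbours of CYP4F2 thus did not all follow it. That of CYP4F3 read only 27.9 to 51.5 over the 14 arrays, and that of CYP4F11 52.7 to 97.2, under every array median. A change of either transcript may therefore go unseen. A probe set annotated to both CYP4F2 and CYP4F3 was higher with TSA and is described below. Whether the CYP4F12 signal with TSA holds signal of CYP4F2 was not tested. The nearest one, CYP4F11, and the one between CYP4F8 and CYP4F12, CYP4F3, had intervals that reach at most 0.44 on the log2 scale in TSA minus DMSO, far below the differences of the other 3.

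The probe set annotated to both CYP4F2 and CYP4F3 followed CYP4F2. It read 2.05 and 1.00 with DMSO and 741 and 686 with TSA (713 ± 39.3, SD, n = 2), and between 1.00 and 7.32 on the 12 arrays without TSA. TSA minus DMSO was 5.38 ± 0.11 (SE), a size that also depends on the 16 added. Which of the 2 transcripts it read cannot be told apart from the annotation; the probe set of CYP4F3 alone was at 43.3 and 35.7 on the same TSA arrays. Of the CYP4F pseudogenes on chromosome 2, CYP4F30P differed by -0.25 ± 0.21 and CYP4F62P by -0.33 ± 0.15 in TSA minus DMSO, and neither passed an adjusted p of 0.05 (limma, 0.463 and 0.126).

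The comparisons without TSA ask whether Roscovitine, the loss of EZH2 or its restoration moved these genes. Over 6 such comparisons and 6 members the 36 differences ran from -0.25 (CYP4F22, si-Control minus DMSO) to 0.31 (CYP4F12, EZH2 add-back minus si-EZH2), and 0 passed an adjusted p of 0.05 by limma; 1 had an unadjusted p under 0.05. The bounds of the 95% intervals ran from -0.96 to 1.05, both of CYP4F12. Changes of up to about that size, on the scale used for the comparisons, could therefore have been missed. That scale understates the change of low signals. For members at low signal, larger relative changes of the signal itself could thus have been missed as well. A p above the threshold does not show that a gene stayed the same.

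Roscovitine minus DMSO, which shares the DMSO arrays with the contrast that chose CYP4F2, gave differences of -0.05 for CYP4F2, -0.01 for CYP4F8, -0.06 for CYP4F12, -0.09 for CYP4F3, 0.04 for CYP4F11 and 0.11 for CYP4F22. None of the 6 passed, where 1.26% of all probe sets did. In si-EZH2 minus si-Control, where 0.233% of all probe sets passed, CYP4F2 differed by -0.24 ± 0.23 (SE), CYP4F12 by 0.25 ± 0.33 and CYP4F22 by 0.25 ± 0.13 (limma, adjusted p = 0.665 for CYP4F22), and none of the 6 passed. With EZH2 at 33.0% of its si-Control signal, CYP4F2 read 11.1 and 8.28 and CYP4F8 read 3.67 and 2.83, all far below a signal of 50.

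Among the 6 members CYP4F11 had the lowest p outside the TSA contrasts. EZH2 add-back minus si-EZH2 was 0.30 ± 0.13 (SE), with a 95% interval from 0.01 to 0.60, an unadjusted p of 0.0467 and an adjusted p of 0.239 by limma. It did not pass, as none of the 6 members did where 6.37% of all probe sets passed. T350A add-back minus si-EZH2 was 0.23 ± 0.13 for the same gene (limma, adjusted p = 0.602), in a contrast in which 0.342% of all probe sets and none of the members passed. Between both add-backs (T350A minus EZH2) CYP4F11 differed by -0.07 ± 0.13 and CYP4F3 by 0.25 ± 0.22, with no member past the threshold and 0.0348% of all probe sets past it. The probe set shared by CYP4F2 and CYP4F3 differed by -0.39 ± 0.11 there, from mean signals of 6.44 and 1.05, both near the floor, and did not pass (limma, unadjusted p = 0.00521, adjusted p = 0.217).

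In si-Control minus DMSO, where transfection and time cannot be told apart, CYP4F22 differed by -0.25 ± 0.13 (SE; limma, adjusted p = 0.404) and the other 5 members by -0.12 to 0.12. None of the 6 passed, beside 5.62% of all probe sets. Without replicate 2 of both Roscovitine and the T350A add-back, and without any single array of these groups, 0 members passed by limma in each of the 6 comparisons without TSA.

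**Figure D2:**
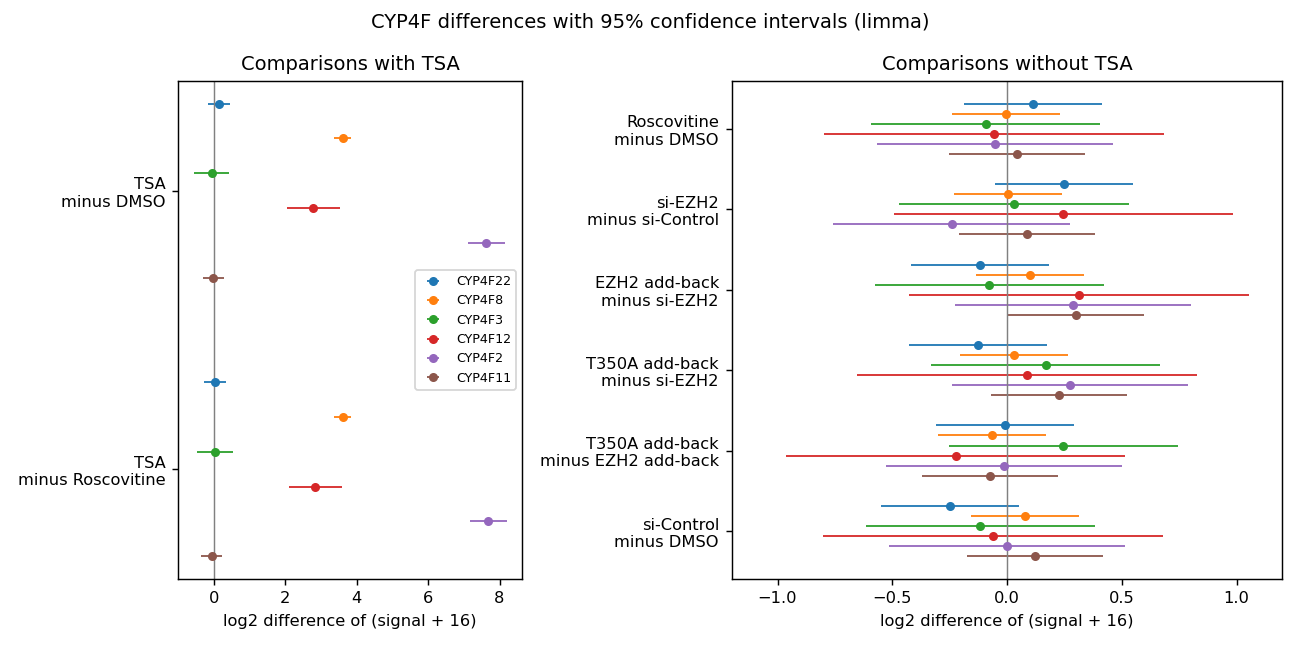
Log2 differences of (signal + 16) with 95% confidence intervals from limma for the 6 members, at left in the 2 comparisons with TSA and at right, on a narrower axis, in the 6 without. At left CYP4F2, CYP4F8 and CYP4F12 lie between 2.78 and 7.69 and the others next to 0; at right all 36 differences lie between -0.25 and 0.31.

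The 27 measured genes that lie between the members or within 500 kb of them, of 58 annotated there, showed no common direction with TSA. In TSA minus DMSO 6 were higher, 5 lower and 16 did not pass, beside 19.4% of all genes higher and 20.5% lower, with a median difference of 0.01. The differences ran from -1.27 ± 0.08 (SE) for WIZ, which encodes a zinc finger protein, to 1.80 ± 0.33 for SLC1A6, a glutamate transporter. AKAP8L, a nuclear anchoring protein gene, rose by 1.36 ± 0.08, while its neighbour AKAP8 fell by 0.62 and TPM4, a tropomyosin gene, fell by 0.89. The measured genes between the members were the olfactory receptors OR10H2, OR10H3 and OR10H1 and the noncoding UCA1. They lie between CYP4F12 and CYP4F2 and differed by -0.62 ± 0.34, 0.12 ± 0.14, -0.33 ± 0.12 and 0.40 ± 0.21, and none passed.

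**Figure D3:**
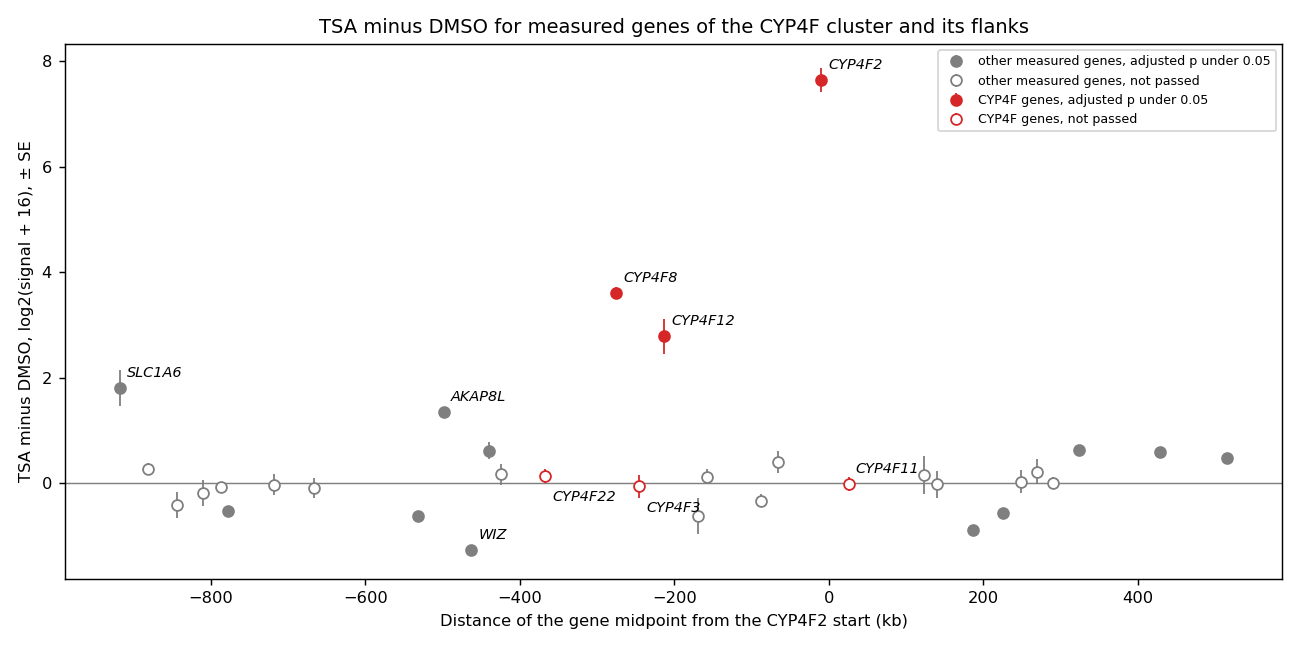
TSA minus DMSO on the log2(signal + 16) scale (y axis, bars are SE of the fit, n = 2 arrays per group) against the distance of each gene's midpoint from the CYP4F2 start in kb (x axis) for the 6 members (red) and the 27 other measured genes (grey); filled points passed an adjusted p of 0.05. CYP4F2 (7.64), CYP4F8 (3.61) and CYP4F12 (2.78) stand above every other gene of the region, the next being SLC1A6 (1.80).

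Where 19.4% of all genes were higher with TSA and 20.5% lower, 8 of 41 other cytochrome P450 genes measured were higher and 2 lower. The other 31 did not pass, and the median difference of the 41 was 0.05. The largest difference was that of CYP26B1, which degrades retinoic acid: it rose by 2.77 ± 0.37 (SE), from a mean signal of 28.5 to 285, close to the size of CYP4F12. The genes with the smallest adjusted p were CYP2R1, which activates vitamin D (1.18 ± 0.12), CYP46A1, a cholesterol hydroxylase of brain (1.14 ± 0.13), CYP2U1, a fatty acid hydroxylase (0.81 ± 0.10), and CYP39A1, an oxysterol hydroxylase, which fell by 0.72. Of the other CYP4 genes 5 were measured. CYP4V2, a fatty acid hydroxylase of the eye, fell by 0.52 ± 0.10, while CYP4A11 (0.49), CYP4B1 (-0.29), CYP4Z1 (0.09) and CYP4X1 (0.00) did not pass.

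**Figure D4:**
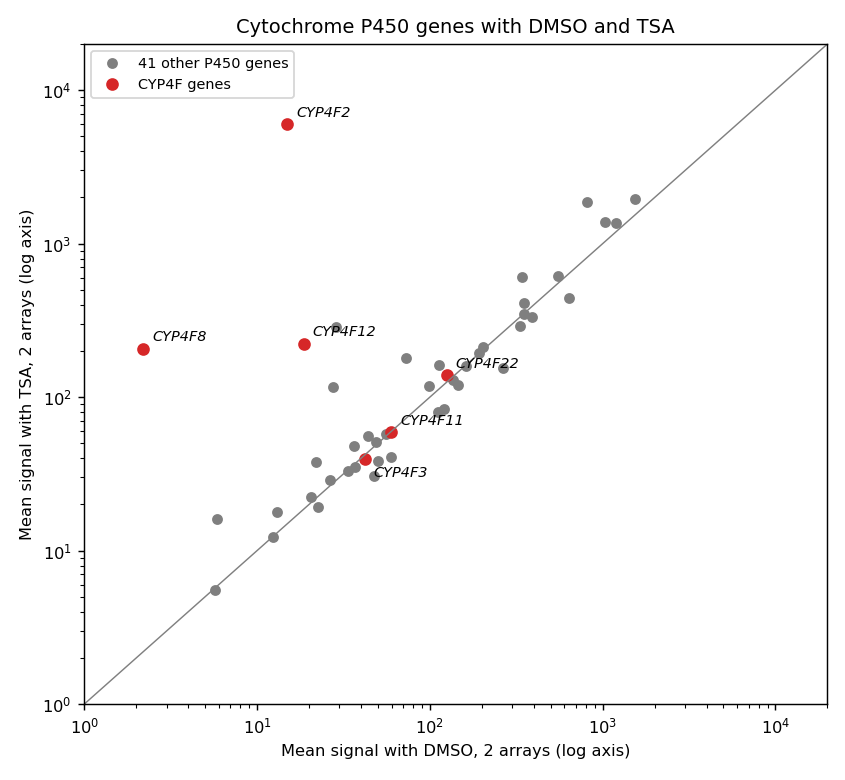
Mean signal with TSA (y axis) against mean signal with DMSO (x axis), both log axes in array units, n = 2 arrays each, for the 6 CYP4F genes (red) and 41 other P450 genes (grey); the line marks equal signals. CYP4F2 (15.0 to 6011) and CYP4F8 (2.20 to 207) lie farthest from the line, CYP4F12 (18.7 to 223) lies beside CYP26B1 (28.5 to 285), and CYP4F3, CYP4F11 and CYP4F22 lie on or near it.

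The genes around these enzymes in their pathways were split with TSA, where 19.4% of all genes were higher and 20.5% lower. Of 8 redox partners and enzymes that oxidise hydroxylated fatty acids further, 3 were higher and 1 lower: POR, the reductase that feeds P450 enzymes, rose by 1.11 ± 0.12 (SE), CYB5R3 rose by 0.73, the fatty aldehyde dehydrogenase ALDH3A2 rose by 0.55, and cytochrome b5 (CYB5A) fell by 1.06. Of 21 eicosanoid enzymes 4 were higher and 6 lower, among them PLA2G4A, which frees arachidonic acid from membranes (up by 3.56 ± 0.29), and the lipoxygenase ALOX15 (-1.96 ± 0.12). PTGES2 and PTGES3, prostaglandin E synthases, fell by 0.97 and 0.67. Of 11 eicosanoid receptors the prostaglandin E receptor PTGER4 rose by 3.29 ± 0.22, PTGFR fell by 2.44 and PTGER3 fell by 0.56, and 8 did not pass.

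Of 8 genes of peroxisomal degradation, which shortens the dicarboxylic acids that these enzymes start, 3 were higher (ABCD3 by 1.27, EHHADH by 1.03 and ACAA1 by 0.72) and 3 lower, HSD17B4 among them (-0.46). Among 5 genes of vitamin K and E, the carboxylase GGCX rose by 0.37 and NQO1 fell by 0.89. Among 9 genes of skin acylceramides, the pathway of CYP4F22, the elongase ELOVL4 rose by 5.02 ± 0.22 (SE) from a mean signal of 8.07 to 765, UGCG rose by 0.42, and the lipid transporter ABCA12 fell by 2.86. Of 11 lipid-sensing transcription factors, 3 were higher and 4 lower, with AHR up by 3.36 ± 0.11, SREBF1 up by 1.00, RXRA down (-1.63) and PPARG down (-0.72). The shares of all genes beside these counts were 19.4% higher and 20.5% lower.

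Over all 112 genes of these lists, which leave out the flanking genes, 24 were higher and 20 lower with TSA. These were 21.4% and 17.9%, near the 19.4% and 20.5% of all genes. The median difference of the 112 was 0.03 beside 0.01 for all genes. In si-EZH2 minus si-Control (0.283% of all genes higher, 0.0556% lower) and T350A add-back minus si-EZH2 (0.435% and 0.0809%), 0 of the 112 passed by limma. In Roscovitine minus DMSO (0.324% higher, 1.25% lower) 2 passed, ACAA1 (0.51) and PTGFR (-0.61), and 0 passed without either array of DMSO or of Roscovitine, or with the drug arrays fitted alone. In EZH2 add-back minus si-EZH2 (2.64% higher, 5.46% lower) 6 were higher and 4 lower. The higher ones were the drug-metabolising CYP3A5 (1.67 ± 0.22, SE), CYP4B1 (0.70 ± 0.17), the cyclooxygenase PTGS2 (1.14), PTGER4 (1.12), PTGES (0.90) and AHR (0.48), and EHHADH (-0.83), VKORC1L1 (-0.62), ACOX3 (-0.45) and ABCD3 (-0.34) were lower. Among the 27 flanking genes, TPM4 was higher (0.52) and EPS15L1 lower (-0.48) in the same comparison. With the transfection arrays fitted alone 0 of the 112 were called by limma, and 3 of all 54613 probe sets. With si-EZH2 replicate 1 left out 0 of the 112 were called by limma, with si-EZH2 replicate 2 left out 1, and with EZH2 add-back replicate 1 left out 2. The count was 6 when either si-Control array was left out, and 4 when any one array of the drug groups was.

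Marker genes of the tissues in which CYP4F enzymes are best known were given beside the members. With TSA 19.4% of all genes were higher and 20.5% lower. Of 7 hepatocyte markers 2 were higher with TSA, FGB (0.36) and CYP3A4 (0.42); the summed signal was 1535 to 1553 with DMSO and 1825 to 1908 with TSA, most of it from CYP3A4. Without CYP3A4 the sum was 506 to 518 with DMSO and 455 to 506 with TSA, 5 of the 7 markers had a difference below 0, and albumin (ALB) was at 67.4 and 60.0. Of 7 leukocyte markers 1 was lower, PTPRC (-0.62), with sums of 547 to 566 and 429 to 542 and S100A9 at 7.94 and 1.94. Of 7 keratinocyte markers 0 passed by limma, with sums of 5459 to 5736 and 5824 to 6065, most of it from KRT10, and LOR at 1.00 and 1.05. Their part in the signals of the members was not tested.

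The genes whose log2 signals were most like those of CYP4F2 over the 14 arrays, among 17071 genes that reached a signal of 50 on any array, were RIF1 (Pearson r = 0.997), FBP2 (0.997), CYP4F8 (0.997), DNM3 (0.996) and L1CAM (0.996). Each of these was high on the 2 TSA arrays, and these 2 arrays carry the likeness. RIF1 stands here for its brightest probe set, 214872_at, alone. That probe set read at most 1.00 on any array without TSA and a mean of 7085 with TSA. Other probe sets of RIF1 were not looked at, so these values do not describe the gene as a whole. For CYP4F8 the nearest were FBP2 and RIF1 (0.998 each), and for CYP4F12 STK4 and ERC1 (0.976 each). CYP4F11 was most like PLA2G2A (0.934) and IFNAR1 (0.923), CYP4F3 most like TLCD3B (0.905) and LINC01431 (0.780), and CYP4F22 most like FREM1 (0.888) and GNL2 (0.821). These correlations describe 14 arrays in 7 groups that share their treatment within a group.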

How the data were processed

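RNA of 14 LNCaP samples was read on Affymetrix arrays, 1 array per sample. The deposited value table holds the authors' intensity (signal) per probe set on a linear scale. Biotin labelling followed the manufacturer's manual, per the labels' protocols; the summarisation and scaling are not given in the sources used here. A second deposited table was not used. Probe sets were named from GEO's platform annotation and RefSeq: of 54613, 41091 had 1 gene symbol, 1801 several and 11721 none, and a gene of several probe sets was taken by its brightest.

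Signals were tested as log2(signal + 16) with limma 3.58.1 in R 4.3.3: 1 model of the 7 group means over all 54613 probe sets and 14 arrays (7 residual degrees of freedom), with empirical Bayes moderation and Benjamini-Hochberg adjustment over all probe sets, called at an adjusted p of 0.05. The code was checked on simulated data. No label says that arrays of one group were separate cultures, so p-values measure only the spread between these samples. The number of arrays limits the precision. Replicate differences of Roscovitine and the T350A add-back correlated by 0.508, and those of the other 20 pairs of groups by -0.160 to 0.140. These values do not settle whether replicate numbers pair the samples, and the main model did not pair them.

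The members and lists were chosen with earlier results of these data known. Named genes were every member probe set, up to 4 called genes of smallest adjusted p per list and comparison, the 5 genes most like CYP4F2 and 2 most like each other member by Pearson r, and EZH2. CYP26B1, SLC1A6, the genes between members, the CYP4 genes that did not pass, the pseudogenes, the marker genes and the other genes that passed in the EZH2 add-back fall outside this rule and were named after their values were seen. The lists were other CYP4 and all other P450 genes, eicosanoid enzymes and receptors, redox partners, peroxisomal degradation, vitamin K and E, skin acylceramides, lipid-sensing transcription factors, and flanking genes. Promoters are those of RefSeq (GRCh38.p14), aligned locally with Biopython 1.88 (match 1, mismatch -1, first gap base -2, further gap base -1). Tables used pandas 2.3.3 in Python 3.11.15, and figures matplotlib 3.10.9. Alternatives were a filter on mean signal, quantile or median normalization, pseudocounts of 1 and 64, 1 probe set per gene, a replicate block, a robust prior with an intensity trend, fits within one experiment, and leaving out each array, or replicate 2 of both Roscovitine and the T350A add-back.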

Additional observations from a re-analysis of the deposited data

Results flagged for a closer look

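The probe set annotated to both CYP4F2 and CYP4F3, which the choice of members leaves out, carried a signal with TSA that the control arrays lacked. Its mean was 713 ± 39.3 (SD, n = 2) with TSA and 1.52 with DMSO, and it stayed between 1.00 and 7.32 on the 12 arrays without TSA. Groups of 2 arrays are too small for a test of single outlying arrays.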

How the results depend on the processing

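With TSA, CYP4F2 exceeded DMSO by 6.27 to 8.68 on the log2 scale over 24 alternatives, CYP4F8 by 2.03 to 6.03 and CYP4F12 by 1.79 to 3.51 over 23 each, with the lowest and the highest values at pseudocounts of 64 and 1. Leaving the pseudocounts aside, the ranges were 7.34 to 7.94, 3.48 to 3.74 and 2.68 to 2.89. CYP4F3 (-0.18 to 0.06), CYP4F11 (-0.14 to 0.12) and CYP4F22 (0.06 to 0.22) passed under none of their alternatives. The filter on mean signal left 1 member called in TSA minus DMSO and 1 in TSA minus Roscovitine, since CYP4F8 and CYP4F12 were not among the probe sets tested. With a replicate block 3 members were called in TSA minus DMSO, as without it. In the 6 comparisons without TSA, 0 members were called by limma under any alternative run; si-Control minus DMSO spans both experiments and could not be fitted within one.

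The number of probe sets called among all 54613 moved more. From 17414 it ran between 13943 and 18879 in TSA minus DMSO, from 18016 between 14689 and 18857 in TSA minus Roscovitine, from 689 between 0 and 1591 in Roscovitine minus DMSO, and from 127 between 2 and 417 in si-EZH2 minus si-Control. It ran from 3478 between 3 and 5226 in EZH2 add-back minus si-EZH2, from 187 between 2 and 686 in T350A add-back minus si-EZH2, from 19 between 0 and 1202 between both add-backs, and from 3067 between 914 and 4486 in si-Control minus DMSO. With 1 probe set per gene 8331 of 19775 (42.1%) were called in TSA minus DMSO, and in TSA minus Roscovitine 8514; in EZH2 add-back minus si-EZH2 2246, in si-Control minus DMSO 2049 and between both add-backs 41 were. With the filter, of 27304 probe sets 1877 were called in Roscovitine minus DMSO, 486 in si-EZH2 minus si-Control, 5500 in EZH2 add-back minus si-EZH2, 672 in T350A add-back minus si-EZH2, 220 between both add-backs and 4958 in si-Control minus DMSO. The related genes called numbered 0 to 5 with Roscovitine, 0 or 1 in si-EZH2 minus si-Control and 0 to 2 in T350A add-back minus si-EZH2. Signals under 50 limit the sizes given for CYP4F2, CYP4F8 and CYP4F12 outside TSA.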
